A study of Mus musculus with 37 samples.

Results

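Mast cells grown from mouse bone marrow were compared with and without lipopolysaccharide (LPS), the endotoxin of Gram-negative bacteria. The comparison took all genes of the deposited table that had a mean of 10 or more in at least 1 of the groups, LPS or untreated. These were 5695 of the 6509 named genes, from 4 of the 37 samples in the series. The samples came from C57Bl6cJ mice, and the cells were bone marrow-derived mast cells, which by the study's methods were mast cells by morphology and by FcεRIα on their surface. The untreated group received neither IL-10 nor LPS, and the LPS group received LPS at 100 ng/ml for 4 hours without IL-10. A further pair of mast cell groups received the anti-inflammatory cytokine IL-10 at 100 ng/ml for 4 hours, either alone or followed by 4 hours of LPS, and its 4 libraries are shared with no library of the first pair. Groups without LPS were harvested at 4 hours and groups with LPS at 8 hours after a change of medium, so that LPS and the longer culture cannot be told apart in either pair. Each group had 2 replicates from different mice, and the table holds only their mean, so no replicate spread, no test and no p-value can be given for any value here, and a mean may rest on 1 of its 2 libraries.

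Mast cells are tissue-resident leukocytes that store histamine, serotonin, heparin and proteases in granules and release them when antigen crosslinks IgE on the FcεRI receptor. LPS is bound by CD14 and MD-2 and sensed by TLR4, which signals through MyD88 to NF-κB and MAP kinases and through TRIF to IRF3 and type I interferon. In mast cells TLR4 is known mainly for inducing cytokines without degranulation. The genes for CD14, TLR4 and MyD88 were not analysed here. Ly96, the gene of MD-2, had a mean of 93 untreated, 149 with LPS, 107.5 with IL-10 and 173 with both, a log2 fold change of 0.67 for LPS against untreated.

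The mast cell genes Kit, Tpsb2 and Il1rl1 had high values in every group. Of 9 mast cell markers listed, only Kit and Tpsb2, or 2, were in the table. Kit, the stem cell factor receptor, had means of 122732 untreated and 130854 with LPS. Tpsb2, a granule tryptase, and Il1rl1, the IL-33 receptor, were at the top of the table in all 4 groups. There the main transcript of each had the highest value the normalization allows, 185338. A rise in either could not have been seen, nor a fall too small to take it from the top. Of the markers of other cells, the 4 macrophage markers in the table summed to 2268 untreated and 2210.5 with LPS, the 7 neutrophil markers to 1194 and 698.5, the 3 dendritic cell markers to 453 and 376.5, and the 4 lymphocyte markers to 18.5 and 38. The 4 eosinophil and basophil markers summed to 17949 and 15023, nearly all from Cd200r3, which mast cells also express, and the 8 erythroid and platelet markers to 40057 and 37211, mostly from Itga2b and Gp1ba. Ly6g and Pax5 were listed at 0 in both the untreated and the LPS group. The marker lists were only partly covered, with 4 of 12 macrophage, 7 of 13 neutrophil and 3 of 11 dendritic cell markers in the table. For lymphocytes it was 4 of 14, for eosinophils and basophils 4 of 12, and for erythroid cells and platelets 8 of 12.

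LPS-treated mast cells had 268 genes at least 2-fold above untreated cells, or 4.71% of the genes kept, and 308 genes at least 2-fold below, or 5.41%. These are called raised and lowered below, on log2((LPS + 1)/(untreated + 1)), a scale that understates the change of genes with small values. More genes were lowered than raised, but the rises were larger, and with 10 in place of 1 added to each mean 232 genes were raised and 203 lowered. The median log2 fold change was 1.69 among raised genes and -1.28 among lowered genes, and 102 raised genes against 40 lowered genes changed at least 4-fold. Beyond 8-fold there were 54 raised and 10 lowered genes. Raised genes also had larger values, which are not per length. The higher of the 2 means was at least 1000 for 107 raised and 53 lowered genes, and its median was 482.75 for raised and 95.25 for lowered genes. Among genes whose mean over both groups was under 50, 19.2% were lowered and 11.6% were raised, and among genes between 1000 and 5000 the shares were 1.30% and 3.41%. The median gene of all those kept stood at -0.08. The shares of 4.71% raised and 5.41% lowered are the background for each list below. At the threshold itself, Deb1 was just inside with 175.5 untreated and 352.5 with LPS, and Mapk6 just outside with 2290.5 and 4558.5. On the lowered side Ano10 was just inside with 61 and 30, and Kif21b just outside with 3283 and 1643.

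**Figure D1:**
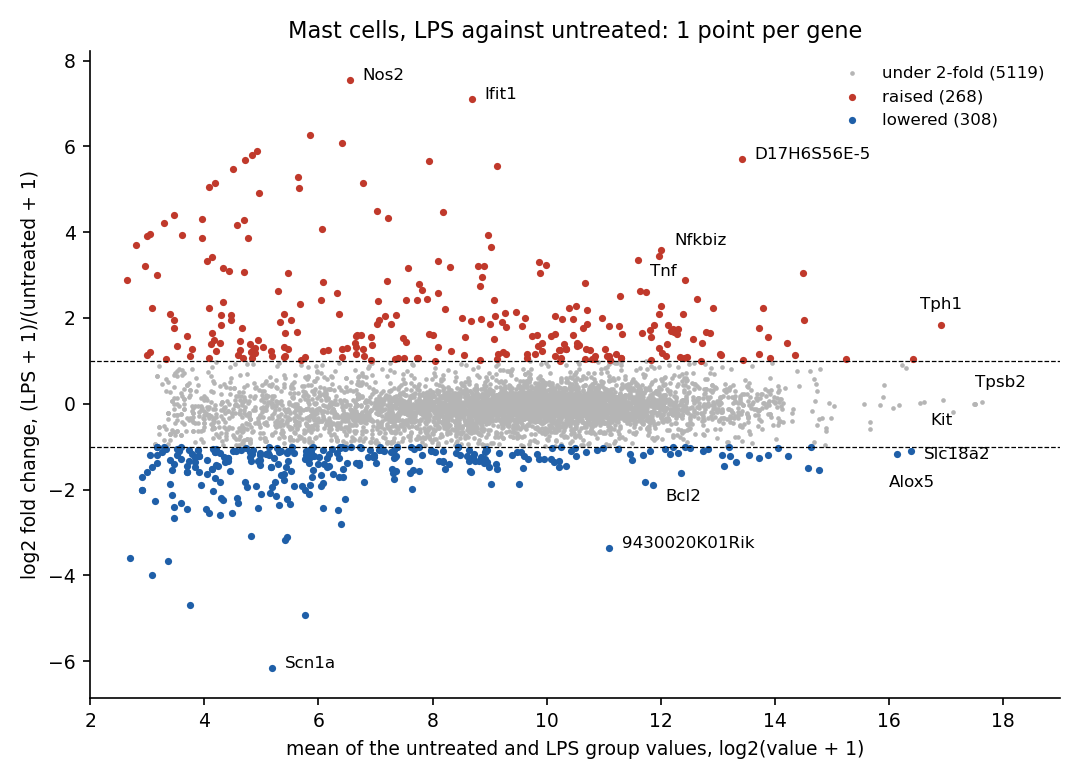
Each point is a gene kept in the comparison, with the mean of the untreated and LPS values on a log2 axis and the log2 fold change, LPS over untreated with 1 added to each, on the vertical axis. The 268 raised genes (red) reach higher fold changes than the 308 lowered genes (blue), and 9430020K01Rik, with 4003 untreated, is a large fall at a high value. The dashed lines mark 2-fold, and genes listed at 0 in 1 group, such as Nos2 and Scn1a, owe their place to the added 1.

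Promoters of 4 raised genes are shown first, for the κB and ISRE letters they hold, which were found in a larger share of the promoters of raised genes than in those of all genes kept. All are RefSeq promoters on GRCm38.p6, each with 250 bases before and 50 bases after the start of transcription, written 5′ to 3′ on the gene's strand. For Ifit1 and Ifit3, which encode RNA-binding proteins that block viral translation, capitals mark letters that match the interferon-stimulated response element (ISRE), searched as TTCNNTTTC on both strands, with 3 matches in each promoter.
Ifit1, chr19:34640639-34640938, plus strand: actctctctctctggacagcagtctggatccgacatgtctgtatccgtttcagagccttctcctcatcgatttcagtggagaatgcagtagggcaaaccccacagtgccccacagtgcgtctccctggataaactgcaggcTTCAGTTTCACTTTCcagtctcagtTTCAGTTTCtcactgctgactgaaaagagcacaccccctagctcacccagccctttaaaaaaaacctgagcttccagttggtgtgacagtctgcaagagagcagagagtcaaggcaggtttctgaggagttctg
Ifit3, chr19:34583279-34583578, plus strand: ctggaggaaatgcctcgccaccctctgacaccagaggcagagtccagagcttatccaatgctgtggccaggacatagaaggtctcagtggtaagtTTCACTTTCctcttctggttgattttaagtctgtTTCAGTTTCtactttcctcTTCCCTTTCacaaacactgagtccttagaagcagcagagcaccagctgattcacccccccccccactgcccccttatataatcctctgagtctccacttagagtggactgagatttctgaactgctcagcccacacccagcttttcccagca
For Nfkb2, which encodes the p100 and p52 subunits of NF-κB, and for Ier3, an immediate early gene that modulates cell survival, capitals mark letters that match a κB site, searched as GGANTTTCC or GGANTTCCC on both strands. The 2 matches of the first Nfkb2 promoter overlap, and those of Ier3 are apart.
Nfkb2, chr19:46304487-46304786, plus strand: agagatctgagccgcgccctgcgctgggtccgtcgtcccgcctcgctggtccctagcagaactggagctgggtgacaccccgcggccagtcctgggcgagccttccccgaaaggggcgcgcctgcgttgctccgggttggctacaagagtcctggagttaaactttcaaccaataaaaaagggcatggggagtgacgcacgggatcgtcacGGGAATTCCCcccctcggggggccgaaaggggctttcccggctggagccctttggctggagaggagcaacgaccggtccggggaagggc
Ier3, chr17:35821463-35821762, plus strand: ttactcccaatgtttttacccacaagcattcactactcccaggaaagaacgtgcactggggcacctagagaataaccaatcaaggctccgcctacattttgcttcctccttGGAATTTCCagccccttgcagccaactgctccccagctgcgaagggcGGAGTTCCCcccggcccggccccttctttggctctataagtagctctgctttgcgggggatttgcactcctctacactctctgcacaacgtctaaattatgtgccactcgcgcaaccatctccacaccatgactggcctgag
Klf2, a transcription factor that holds leukocytes in a quiescent state, and Bcl2, the inhibitor of mitochondrial apoptosis, were lowered. Their promoters held none of the 4 motifs searched, and capitals mark the CpG dinucleotides, 32 in Klf2 and 44 in Bcl2. Both are richer in CpG than most promoters of lowered genes, whose median was 15, against 20 for all kept genes.
Klf2, chr8:72318812-72319111, plus strand: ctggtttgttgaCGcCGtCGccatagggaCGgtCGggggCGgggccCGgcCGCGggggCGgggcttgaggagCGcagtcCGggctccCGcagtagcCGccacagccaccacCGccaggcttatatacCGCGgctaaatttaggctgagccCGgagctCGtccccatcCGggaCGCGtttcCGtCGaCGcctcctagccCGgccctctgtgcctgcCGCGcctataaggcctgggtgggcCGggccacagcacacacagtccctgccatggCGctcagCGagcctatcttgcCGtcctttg
Bcl2, chr1:106714241-106714540, minus strand: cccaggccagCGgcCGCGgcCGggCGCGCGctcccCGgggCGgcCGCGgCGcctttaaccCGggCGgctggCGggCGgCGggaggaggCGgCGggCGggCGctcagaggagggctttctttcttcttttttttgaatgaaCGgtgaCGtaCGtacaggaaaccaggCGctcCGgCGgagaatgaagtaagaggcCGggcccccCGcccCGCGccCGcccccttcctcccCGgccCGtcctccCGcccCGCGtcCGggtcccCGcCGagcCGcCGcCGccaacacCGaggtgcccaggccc

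Over all promoters a κB match was found in 37 of the 265 promoters of raised genes (13.96%) and in 3 of the 306 promoters of lowered genes (0.980%). The share was 3.20% among the 5435 promoters of all genes kept and 2.47% among all 32851 promoters of the RefSeq table. An ISRE match stood in 17.0% of the promoters of raised genes, 6.54% of lowered, 7.67% of kept genes and 8.56% of all promoters. Of the 45 promoters of raised genes with an ISRE match, 26 belonged to genes on the list of interferon-induced genes. These were 26 of their 36 promoters (72.2%), against 8.30% of the 229 promoters of the other raised genes, which in turn held a κB match in 14.8%. AP-1 letters (TGANTCA) were found in 10.2%, 5.88%, 5.45% and 7.81% of the promoters of raised genes, lowered genes, kept genes and the whole table, and STAT letters (TTCNNNGAA) in 11.3%, 7.19%, 7.58% and 8.30%. ISRE and STAT letters can overlap in part. Of these sets, the κB share was highest among raised and lowest among lowered genes. The median number of CpG dinucleotides in a promoter was 11 for raised genes, 15 for lowered genes and 20 for all kept genes, and 5.5 for the raised interferon-induced genes. Promoters were matched by symbol for 208 of the 268 raised, 228 of the 308 lowered and 4202 of the 5695 kept genes, and a match is a description of letters, not of a bound factor. The lowered genes were also longer in the genome, with a median span of 30.3 kb against 17.0 kb for raised genes and 23.3 kb for all kept genes.

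**Figure D2:**
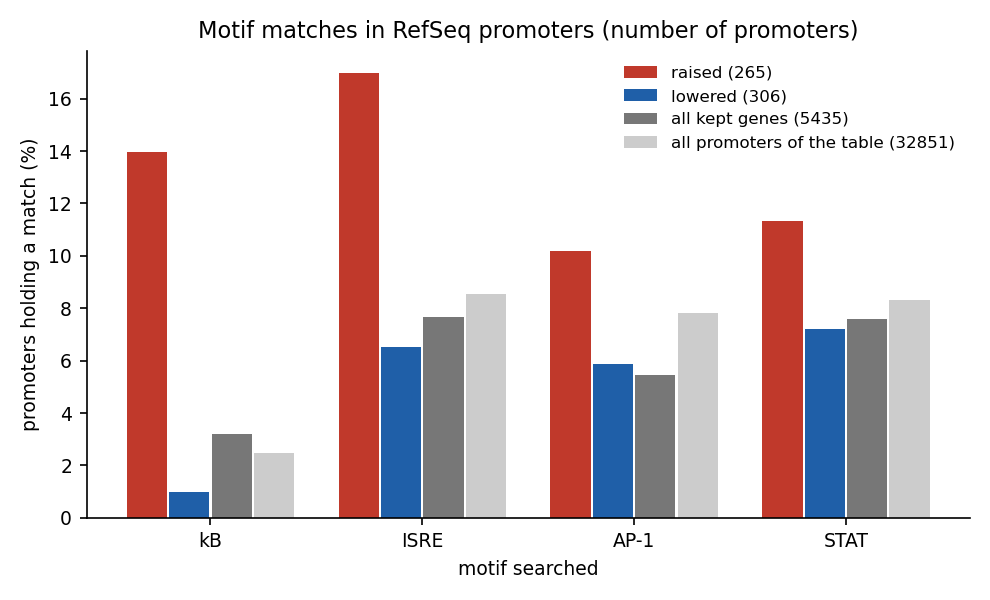
Bars give the percentage of RefSeq promoters that hold at least 1 match of each motif, for raised genes, lowered genes, all genes kept and all promoters of the table, with the number of promoters in the key. Raised genes stand above the other sets for κB (13.96%), ISRE (17.0%), AP-1 (10.2%) and STAT (11.3%), and lowered genes stand lowest for κB (0.980%).

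The largest rises among genes with a mean of at least 50 were of Nos2, Ifit1 and Cav1. Nos2, the inducible nitric oxide synthase (chromosome 11, 78734289 to 78773756 on NCBIM37), had a value of 0 in untreated cells, 185.5 after LPS, 1 with IL-10 and 238 with IL-10 and LPS. Ifit1 (chromosome 19, 34715361 to 34724499) had 5 untreated, 820 with LPS, 3 with IL-10 and 382 with both. In both genes the groups with LPS were far above those without. D17H6S56E-5, an annotated gene of the MHC region (chromosome 17, 35133681 to 35138609), went from 414 to 21602 without IL-10 and from 2100 to 22668 with it. Its log2 fold change was 5.70 in mast cells against 1.32 in macrophages and 0.67, 0.41 and 0.19 in eosinophils, neutrophils and splenic dendritic cells.
Other large rises were of genes with little or no expression in untreated cells. Cav1, the coat protein of caveolae, had 0.5 untreated and 113.5 with LPS, and Kcnmb1, a subunit of the BK potassium channel, had 5 and 212. Npnt, an integrin ligand of the extracellular matrix, had 1 and 59. Lad1, which encodes an anchoring filament protein, was listed at 0 and 50.5, Nox1, an NADPH oxidase, at 0 and 55, and Ttc39a at 6.5 and 125. Hrh1, the H1 receptor for histamine, had 2.5 and 50. Kcnmb1 and Hrh1 were not raised in the other cell types of the study, where Kcnmb1 did not reach the minimum of 10 at all. All 20 of the largest rises had both means with LPS above both means without it, which is partly fixed by how they were chosen. All 20 were at least 2-fold higher with LPS in the presence of IL-10, although Il12b, Nox1 and Csf2 did not reach 10 in that pair.

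The interleukins were the list with the highest median, 2.41 over 7 kept members, of which 5 were raised and none lowered. The table held 12 interleukins, and Il27, Il12b and Il12a (8 untreated, 34 with LPS) were kept only through their LPS mean. The minimum of 10 therefore partly sets this share and median. Il27, the p28 subunit of IL-27, had 1.5 untreated, 167.5 with LPS, 0 with IL-10 and 58 with both, and Ebi3, which encodes the partner subunit, had 171, 914, 144.5 and 726. Both subunits of IL-27 were thus higher with LPS in either pair. Il12b, the p40 subunit of IL-12 and IL-23, was listed at 0 untreated and 58.5 with LPS, and at 0 and 8 in the presence of IL-10. Il13, the type 2 cytokine that drives mucus production and that mast cells are known to make, had 37 untreated, 341.5 with LPS, 20 with IL-10 and 418 with both. Its log2 fold change of 3.17 without IL-10 stood at 4.32 with it, while Il4, its neighbour in the type 2 cluster, had 224.5 and 265 without IL-10, under the threshold.

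Chemokine genes were raised in 4 of 5 kept members, with a median of 2.06. The table held 7, and Ccl17 and Ccl22 were kept only through their LPS mean, so the minimum of 10 partly sets this share. Cxcl16, a membrane-bound chemokine and scavenger receptor, had 202.5 untreated, 1680.5 with LPS, 141 with IL-10 and 965 with both. Cx3cl1, the ligand of CX3CR1, had 49.5, 150, 10 and 20, so that its IL-10 and LPS mean lay below the untreated mean. Ccl17 and Ccl22, ligands of CCR4, reached only 34.5 and 43.5 with LPS. Of the TNF family ligands 4 of 7 were raised and 1 lowered, with Cd70 (0 to 14) kept only through its LPS mean. Tnf had 551 untreated, 5661.5 with LPS, 575 with IL-10 and 3076.5 with both, a log2 fold change of 3.36. Ltb and Lta, the lymphotoxins, had smaller rises of 1.56 and 1.24. Tnfsf13, the B cell survival factor APRIL, was the lowered member and had 46.5 untreated and 11.5 with LPS. Of the colony-stimulating and growth factors 4 of 9 kept members were raised (44.4%, background 4.71%) and none lowered. The table held 12, and Csf2 was kept only through its LPS mean, so the minimum of 10 partly sets this share. Csf2, which encodes GM-CSF, had 2 untreated and 97 with LPS but 6 with IL-10 and LPS, and Gdf15, a stress-induced member of the TGF-β family, had 1677.5 untreated, 5563.5 with LPS, 1287.5 with IL-10 and 6055.5 with both. Pdgfb had 26 untreated and 57 with LPS.

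**Figure D3:**
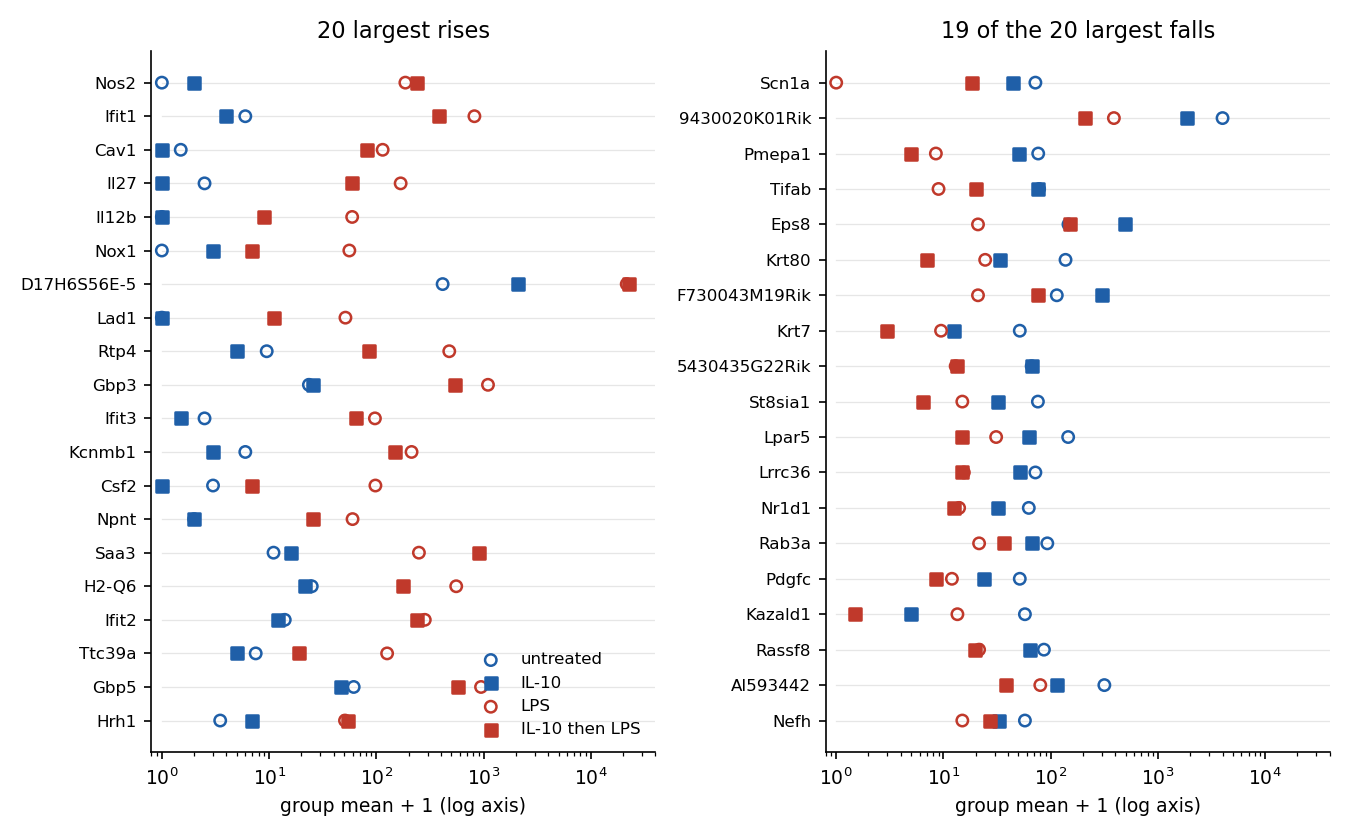
The 20 largest rises (left) and 19 of the 20 largest falls (right), among genes with a mean of at least 50 in 1 of the groups, are plotted as the 4 group means plus 1 on a log axis. Open symbols are without IL-10 and filled symbols with it, blue without LPS and red with it. Red and blue symbols are apart in all 20 rises and in 17 of the 19 falls shown, the exceptions being Eps8 and Kazald1. The genes were chosen on the untreated and LPS means, so this is partly fixed.

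Genes of the NF-κB pathway were raised in 8 of 18 members (44.4%, background 4.71%) and lowered in none, with a median of 0.96. Nfkbiz, the nuclear IκBζ that is needed for a second wave of cytokine genes, had 632.5 untreated, 7644.5 with LPS, 1089.5 with IL-10 and 8090 with both. Nfkb2 had 1316.5, 9651.5, 1872.5 and 8427.5. Both were raised in either pair, with log2 fold changes of 3.59 and 2.89 for Nfkbiz and 2.87 and 2.17 for Nfkb2. The feedback inhibitor Tnfaip3 (A20) went from 6227.5 to 21017.5 and the ubiquitin ligase Birc3 from 2186 to 7077. The kinase Map3k8 had 55 and 203.5 without IL-10 but 252 and 274 with it, so that its value in the IL-10 group exceeded that of LPS alone. Of the 15 kept genes of the TLR4 pathway 2 were raised (13.3%, background 4.71%), Tlr1 (41 to 221) and Tlr7 (20.5 to 49.5). The median of the list was -0.08. Tlr1 pairs with TLR2 to sense lipopeptides.

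Of the 51 interferon-induced genes kept, 42 were raised and none was lowered, a share of 82.4% where the background was 4.71%. Their median log2 fold change was 1.91. Besides Ifit1, the sensors and effectors Ifit3 (1.5 to 96), Ifit2 (13 to 282), Rtp4 (8.5 to 477.5), Gbp3 (22.5 to 1098) and Gbp5 (60.5 to 945.5) led the list. Stat2, a factor of interferon signalling, was raised less, with 1024 and 2451. In the presence of IL-10 fewer of them were raised. There 12 of its 49 kept members were at least 2-fold higher with LPS, and the median was 0.44. The members summed to 34394 untreated and 99117.5 with LPS, and to 34297.5 with IL-10 and 41367 with IL-10 and LPS. Stat2 had 1228.5 with IL-10 and 1355.5 with both, and Ddx58, the RNA sensor RIG-I, which went from 1406 to 6773.5 without IL-10, had 1423.5 and 1820. Members at the head of the list were among the 12, with log2 fold changes of 6.58 for Ifit1, 5.44 for Ifit3 and 4.42 for Gbp3. The difference between the pairs could not be tested.

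Antigen presentation genes were raised in 7 of 19 members (36.8%, background 4.71%) and lowered in none. Of the 7, 4 were class I genes of the H2-Q cluster. H2-Q6 had 24 untreated and 554.5 with LPS, H2-Q7 had 76 and 960.5, H2-Q4 had 569.5 and 2243, and H2-Q10 had 61.5 and 263. These genes are nearly identical to each other, so their tags may have been divided wrongly between them, and the value of each is uncertain. The costimulatory receptor Cd40 had 66.5 untreated, 242 with LPS, 61 with IL-10 and 194 with both. Among adhesion molecules and surface receptors 8 of 44 were raised (18.2%, background 4.71%) and 2 lowered (4.55%, background 5.41%). The lowered share was thus no higher than that of all kept genes. Icam1, the ligand of leukocyte integrins, went from 744 to 4234.5, the activation marker Cd69 from 1977.5 to 10725 and the tetraspanin Cd82 from 2049.5 to 8672.5. Il2rg, the common γ chain of cytokine receptors, had 7752.5 untreated, 22614 with LPS, 7244 with IL-10 and 15541 with both. The type 1 receptor for IL-1, Il1r1, was lowered, with 171.5 untreated and 48 with LPS, and 374 and 199 in the presence of IL-10.

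Among nitric oxide, redox and inflammatory mediator genes 13 of 28 were raised (46.4%, background 4.71%) and 4 lowered (14.3%, background 5.41%). Ptgs2, the inducible cyclooxygenase, had 85.5 untreated and 802.5 with LPS, but 441 with IL-10 and 676 with both. Saa3, an acute phase protein, had 10, 248.5, 15 and 901, and Serpina3f, a serine protease inhibitor, had 66.5, 357, 92.5 and 305. In the opposite direction, Alox5, the 5-lipoxygenase that starts leukotriene synthesis, was lowered from 100482 to 44855.5 and had 64022.5 with IL-10 and 32387.5 with both. Ltc4s and Lta4h, which act after it, had 216 and 190, and 1723 and 1576.5. Ptgs2 and Alox5 thus changed in opposite directions without IL-10. In the IL-10 pair neither reached 2-fold, with log2 fold changes of 0.62 and -0.98. Ch25h, which makes 25-hydroxycholesterol, was lowered from 90.5 to 23.5, and from 81 to 11 in the presence of IL-10, while LPS raised it in macrophages (log2 fold change 4.89) and neutrophils (5.78). Arg1, the arginase that competes with Nos2 for arginine, was lowered from 43.5 to 17.

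On the cytokine, chemokine, NF-κB, TLR4 and interferon lists Tnfsf13 was the single lowered gene. The largest falls among genes with a mean of at least 50 included Scn1a, 9430020K01Rik, Pmepa1 and Tifab. Scn1a, a voltage-gated sodium channel, had 71 untreated and was listed at 0 with LPS, and had 44 with IL-10 and 17.5 with both. 9430020K01Rik had the largest fall at a high value, from 4003 to 387.5, and from 1863 to 207.5 in the presence of IL-10. Its log2 fold change of -3.37 in mast cells stood against values between -0.43 and 0.41 in the other 4 cell types.
Pmepa1, a transmembrane inhibitor of TGF-β signalling, had 75.5 untreated, 7.5 with LPS, 49.5 with IL-10 and 4 with both, and in neutrophils and splenic dendritic cells it went the other way, with log2 fold changes of 1.75 in each. Tifab, which encodes a protein related to the TRAF6 adaptor TIFA, had 77, 8, 75 and 19. It was the member of the 20 largest falls that was lowered in all 5 cell types together with 5430435G22Rik, which had 65.5, 12, 66.5 and 12.5. Among the other large falls, Eps8, an actin-capping protein, had 145.5 untreated and 20 with LPS, the keratins Krt80 and Krt7 had 136.5 and 23.5, and 50.5 and 8.5, and the neurofilament gene Nefh had 56.5 and 14. Nefh was not lowered in the presence of IL-10, with 32 and 26.

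The rest of the 20 largest falls had small values. Lpar5, a receptor for lysophosphatidic acid, had 144.5 untreated and 30 with LPS, and St8sia1, the sialyltransferase that makes the ganglioside GD3, had 75 and 14. Rab3a, a GTPase of regulated exocytosis, had 92 and 20.5, and Pdgfc, a growth factor, had 50.5 and 11. Nr1d1, the clock repressor REV-ERBα, had 61.5 and 13. F730043M19Rik, Lrrc36, Kazald1, Rassf8 and AI593442 had log2 fold changes between -2.44 and -1.98. Of the 20 genes, 13 had an untreated mean under 100. Both means with LPS lay below both without it in 18, which is partly fixed by how the genes were chosen. In the presence of IL-10, 18 were at least 2-fold lower with LPS, the exceptions being Rab3a and Nefh, although Kazald1 did not reach 10 in that pair.

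Several transcription factor genes were lowered. Klf2 had 815.5 untreated, 224 with LPS, 1012.5 with IL-10 and 421.5 with both, and its relative Klf4 had 28, 4, 17 and 3. Fos had 1159, 475, 844 and 100.5. In the immediate early list as a whole 5 of 23 were lowered and 3 raised, the latter Batf, Ier3 (10012 to 20950) and the orphan nuclear receptor Nr4a3 (8.5 to 78). Myc was lowered from 1741 to 626 but had 2445 with IL-10 and 2728.5 with both, so that its fall was not seen in the second pair. The ribosome biogenesis genes, many of which Myc is known to drive, had none of 32 at 2-fold, with a median of -0.15 without IL-10 and 0.14 with it. Mxi1, a Myc antagonist, had 825.5 untreated, 289 with LPS, 609 with IL-10 and 242 with both. Nfatc2, the calcium-regulated factor of cytokine genes, had 2041.5, 870.5, 1398.5 and 416. On the lineage factor list 3 of 35 were lowered, Mxi1 and Nfatc2 among them, and 3 raised. Each share was 8.57%, where the background was 5.41% lowered and 4.71% raised. The raised members were Ets2, Irf5 (541.5 to 1619), a mediator of TLR signalling, and Myb (3694.5 to 9821.5), a factor of haematopoietic progenitors, and neither of the last pair was raised in another cell type. Gata1 and Tal1, factors of the mast cell and erythroid lineages, had log2 fold changes of -0.15 and -0.47.

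Bcl2 (chromosome 1, 108434755 to 108610851) had 5890.5 untreated, 1588.5 with LPS, 2877.5 with IL-10 and 690.5 with both. It was the lowered member of the 21 apoptosis regulators (4.76%, background 5.41%), 3 of which were raised (14.3%, background 4.71%). These were Birc3, the inflammatory caspase Casp4 (262 to 1153) and the death receptor Fas (54 to 211). Fas had 63.5 with IL-10 and 355.5 with both. Bcl2l1, the related survival gene, had 1481 and 2660.5, under the threshold.

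Glycolysis had the lowest median of the function lists, -0.52 over 21 genes, of which 4 were lowered and 1 raised. Slc2a1, the glucose transporter GLUT1, had 9284.5 untreated, 4347 with LPS, 5947 with IL-10 and 3423 with both. The phosphofructokinase subunit genes Pfkl (4911 to 2284) and Pfkp (9890 to 4758.5) and the lactate exporter Slc16a3 (4126 to 1673.5) were lowered as well. Pfkp stands near the threshold, at -0.98 if the median of all kept genes is set to 0. Over the list 12 genes had both means with LPS below both without it and 1 had them above, where 32.2% and 20.6% of all kept genes did. The raised member, the enolase Eno2, had 752.5 and 1830. Cholesterol and fatty acid synthesis had 2 of 20 raised, Idi1 (977 to 5903), the isomerase of isoprenoid synthesis, and Sqle (1336.5 to 2908.5), squalene epoxidase. Idi1 had 1176.5 with IL-10 and 10088 with both.

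**Figure D4:**
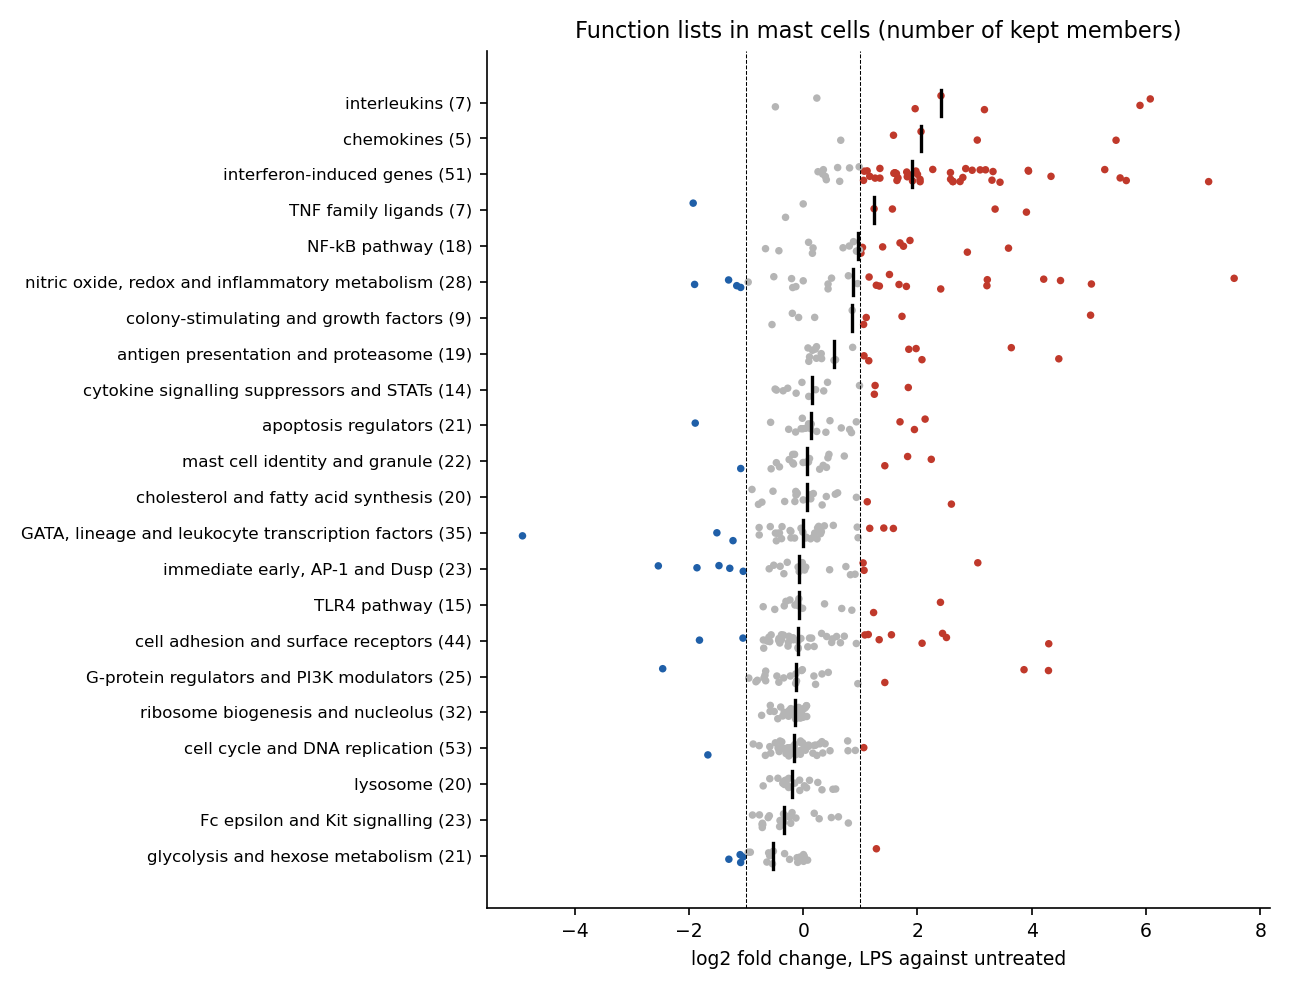
Each point is a kept member of a function list at its log2 fold change for LPS against untreated, red if raised and blue if lowered, with the list's median as a black bar and its number of members in parentheses. Lists run from glycolysis (median -0.52) at the bottom to interleukins (2.41) at the top. Points are spread at random in height for visibility.

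Of 48 genes listed for mast cell identity 23 were in the table, and most of those kept stayed under 2-fold. Of 22 kept genes 3 were raised and 1 lowered (13.6% and 4.55%, where the background was 4.71% and 5.41%), with a median of 0.07. Among the raised genes, Tph1, the first enzyme of serotonin synthesis in these cells (chromosome 7, 53902500 to 53927907), had 54476.5 untreated, 193346 with LPS, 144718 with IL-10 and 204998 with both, and Slc6a4, the serotonin transporter, had 470.5, 2228.5, 324.5 and 620.5. In the IL-10 pair both were under 2-fold, with log2 fold changes of 0.50 for Tph1 and 0.93 for Slc6a4. The main Tph1 transcript had the highest value of the scale, 185338, in both groups with LPS. Slc18a2, which loads histamine and serotonin into granules, was lowered from 117062 to 54858 but had 49839.5 with IL-10 and 54465 with both. Its fall therefore rested on the untreated group, which stood apart from the other 3. The main transcripts of Tph1 and Slc18a2 sat on the uppermost steps of the normalized scale, where a transcript is given 1 of a few shared values. The main transcript of Slc18a2 had 52655 in both groups with LPS, the same value that the main transcript of Tph1 had in untreated cells. Rgs13, a regulator of G-protein signalling, had 99.5 untreated and 269.5 with LPS. Csf2rb2, a chain of the IL-3 receptor, had 151676 and 133666. Of the 23 genes of FcεRI and Kit signalling none reached 2-fold in either direction, with a median of -0.34 against -0.08 for all kept genes. Both means with LPS lay below both without it in 11 of them and above in 4, where 32.2% and 20.6% of all kept genes did.

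Cell cycle and DNA replication had 1 raised (Uhrf1, 116.5 to 244) and 1 lowered (Orc1, 61 to 18.5) of 53, or 1.89% each. Lysosomal genes had none of 20. Orc1, a subunit of the origin recognition complex, had 38 with IL-10 and 13.5 with both. Of 14 suppressors and STATs of cytokine signalling 3 were raised (21.4%, where the background was 4.71%), among them Stat2 and the kinase Pim2 (715.5 to 1697.5). Of 25 G-protein and PI3K regulators 3 were raised and 1 lowered, Hrh1, Gpr84 and Rgs13 against Gpr35. The shares were 12% and 4%, where the background was 4.71% and 5.41%. Hrh1 and Gpr84 were kept only through their LPS mean. Of the marker lists, the neutrophil list had 1 raised and 2 lowered of 5 kept genes, with Mpo, the granule peroxidase, at 582.5 and 260, and Mmp8, the neutrophil collagenase, at 187 and 88. In bulk RNA fewer cells of a type and less RNA per cell cannot be told apart. Of 3 dendritic cell markers 1 was raised (Xcr1, 4 to 10.5), of 4 eosinophil and basophil markers 1 was lowered (Epx, 25 to 8), and the mast cell, macrophage, lymphocyte and erythroid lists had none of 2, 3, 1 and 4.

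Because no replicates are given, the pair of groups with IL-10 served as the other measurement of LPS in mast cells. It is not a plain repeat, since the study reports that IL-10 suppresses a subset of the LPS-induced genes in these cells. A change that did not recur may reflect IL-10 or the spread of the libraries, which cannot be told apart here. In it 204 of 5655 genes were raised (3.61%) and 276 lowered (4.88%). Of the 250 genes that were raised without IL-10 and kept in this pair, 145 (58.0%) were raised again, 239 had the same sign and none was lowered. Of the 284 lowered genes kept, 158 (55.6%) were lowered again, 270 had the same sign and 1, Stk36, was raised, at values of at most 15.5. With a minimum of 50 in place of 10 in both pairs, 111 raised and 99 lowered genes recurred. Counted from the other side, 71.1% of the genes raised and 57.2% of those lowered in the IL-10 pair were so without IL-10. The median log2 fold change of the lowered genes in the IL-10 pair was -1.09, against -1.28 without IL-10, and that of the raised genes was 1.11, against 1.69. Across the 5616 genes kept in both pairs, Pearson's r of the log2 fold changes was 0.82 and Spearman's rho 0.75, given as a description, since genes are not replicates and both pairs share the difference in culture time. Both means with LPS lay above both without it for 232 of the 268 raised genes, where 20.6% of all kept genes did. Both lay below for 254 of the 308 lowered genes, where 32.2% did. The untreated and LPS means also made the call, so these shares are partly fixed and are not independent of it. IL-10 alone, which shares the untreated group with the LPS comparison, raised 121 of 5662 genes (2.14%) and lowered 151 (2.67%).

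**Figure D5:**
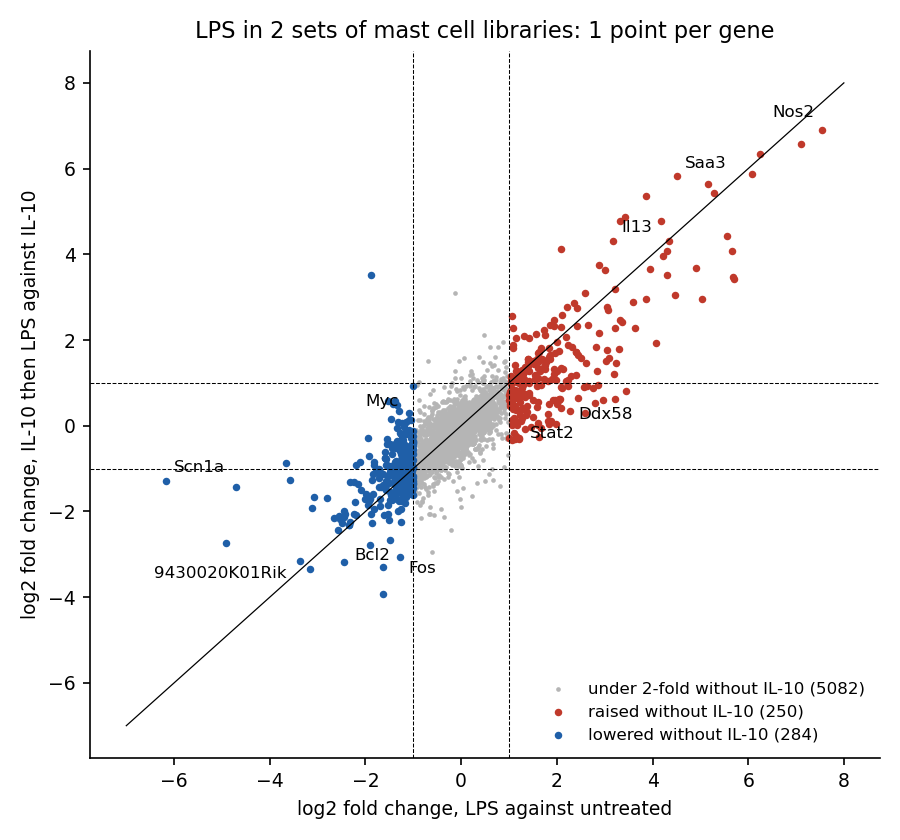
Log2 fold changes for LPS without IL-10 (horizontal) and with IL-10 in both groups (vertical), for the 5616 genes kept in both pairs. Raised (red, 250) and lowered (blue, 284) genes lie mostly on the same side of 0 in both, and a group of raised genes that includes Ddx58 and Stat2 lies near 0 on the vertical axis. The solid line is equality and the dashed lines are 2-fold.

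In each of the other cell types a larger share of the rises than of the falls recurred. Of the raised genes that were kept there, 156 of 249 were raised in macrophages (62.7%, where 12.6% of all genes were raised), 143 of 245 in neutrophils (58.4%, background 8.71%), 118 of 258 in splenic dendritic cells (45.7%, background 8.98%) and 65 of 218 in eosinophils (29.8%, background 2.16%). Of the lowered genes, 127 of 258 were lowered in macrophages (49.2%, background 14.7%), 77 of 249 in neutrophils (30.9%, background 7.83%), 110 of 256 in splenic dendritic cells (43.0%, background 11.5%) and 9 of 218 in eosinophils (4.13%, background 0.702%). In all 4 other cell types 38 of the raised genes were raised, among them Tnf, Nfkbiz, Tnfaip3, Ifit1, Il12b, Saa3 and Lad1, and 3 of the lowered genes were lowered, Tifab, 5430435G22Rik and the nucleotide receptor gene P2ry6.
Genes that were kept in all 4 other cell types but changed in none of them in the same direction numbered 48 of 205 on the raised and 50 of 175 on the lowered side. On the raised side these include Irf5. On the lowered side they include 9430020K01Rik, Bcl2, Myc, Slc18a2, Slc2a1, Pfkl and Pfkp. Of these, Myc and Pfkp were raised in splenic dendritic cells, with log2 fold changes of 1.56 and 1.40, and Pfkl in neutrophils, with 1.07. Opposite changes were fewer, with at most 18 raised genes lowered and at most 24 lowered genes raised in any cell type, in both cases in macrophages.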

How the data were processed

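Total RNA was sequenced. Tags were assigned by the authors to Ensembl transcripts of mm9 (Bowtie 0.12.9, RSEM 1.2.1), corrected for GC content (EDASeq) and deposited as 1 mean over 2 replicates per group. The deposited value is a normalized score: it carries no read total, so that depth is unknown, it is not per length, and its highest value is the same in all 18 columns. Replicate 2 of each mast cell group is listed as a TruSeq library and replicate 1 is not. Of 17015 complete lines 22 had no gene name and were left out, and 16993 transcripts were summed over 6509 gene names. The table used here may be a part of all transcripts.

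Genes with a mean of 10 or more in either group were kept, 1 was added to each mean, and 2-fold was called (pandas 2.3.3, numpy 2.4.6, checked on simulated data). A gene under 10 untreated was kept only if its LPS mean reached 10. The share raised in lists of such genes is therefore partly set by the minimum. Gene positions are from GENCODE vM1 on NCBIM37 and promoters from RefSeq on GRCm38.p6. Members and the 22 function and 7 marker lists were chosen with earlier results of these data known. The named genes are the 20 largest rises and falls with a mean of at least 50, up to 5 members per list at 2-fold, 6 mast cell identity genes with the largest values and Ly96. Other genes were named after their values were seen, and some genes are not reported here. Pseudocount, minimum, scaling, fold and summing over transcripts were varied.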

Additional observations from a re-analysis of the deposited data

How the results depend on the processing

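The counts of raised and lowered genes moved with the settings as follows. A fold of 1.5 gave 456 raised and 757 lowered genes in place of 268 and 308. A pseudocount of 10 gave 203 lowered and 232 raised genes, so that the lowered side lost the larger part, and the share of raised genes among all called went from 46.5% to 53.3%. A minimum of 50 gave 209 raised and 210 lowered genes, no minimum 379 and 403, and the highest transcript of each gene 289 and 341. Dividing each group by its total gave 260 and 310, and setting the median log2 fold change of kept genes (-0.08) to 0 gave 291 and 258. With a minimum of 50 in both pairs, 111 raised and 99 lowered genes also passed in the IL-10 pair, against 145 and 158. No named gene at 2-fold changed direction, but of these settings only the highest transcript of each gene could have reversed one. Pdgfb fell under 2-fold with a pseudocount of 10, Pfkp with the median set to 0, and Pdgfc, Uhrf1 and Eno2 with the highest transcript in place of the sum. No paired analysis was possible because the columns are means over both replicates, and leaving out a replicate could not be run for the same reason. Values under about 50 are limited by low tag numbers whose spread is unknown.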

Other observations

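Of 21 genes of the circadian clock and its output, a list chosen after the values had been seen, 13 were kept in mast cells. Of these 5 were lowered, where 5.41% of all kept genes were, and none was raised, with a median log2 fold change of -0.69. Besides Nr1d1, these were Hlf, a PAR bZIP factor of the clock output, with 599.5 untreated, 202.5 with LPS, 177.5 with IL-10 and 62.5 with both, Dbp, another of these factors, with 397, 185.5, 185 and 123, the clock repressor gene Per2 with 1030, 471, 942.5 and 844.5, and the activator Npas2 with 51, 24.5, 29 and 19. The core genes Clock, Cry2 and Per1 had log2 fold changes of 0.16, -0.19 and -0.13. In the presence of IL-10, Hlf and Nr1d1 were the genes lowered at least 2-fold. Hlf and Dbp were also lower with IL-10 alone than untreated, so that their groups with and without LPS overlapped. The groups with LPS were harvested 4 hours later than those without, and the part of the hour in these values was not tested.

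Some genes held transcripts that changed in opposite directions. In 65 of the 2537 genes with several transcripts at a mean of at least 50 (2.56%) a transcript was at least 2-fold higher with LPS and another at least 2-fold lower. In 5 of the 65, Atad5, Bahcc1, Dync1h1, Polrmt and Tnip1, the same transcripts reached a mean of 10 and moved the same way in the IL-10 pair, and Dync1h1 and Tnip1 were also called on their sums. For Tnip1, a partner of A20, transcript ENSMUST00000108886 had 997 untreated, 3327 with LPS, 903.5 with IL-10 and 3177.5 with both, while ENSMUST00000108889 had 65, 0, 152 and 0. For Atad5, a replication factor whose summed log2 fold change was 0.20, ENSMUST00000108239 had 52.5, 143, 52 and 149.5 and ENSMUST00000017694 had 78, 24, 94 and 30. Transcripts of a gene share sequence, and how their shared tags were divided was not tested.

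The lowered genes with the largest untreated values, named after their values were seen, were Slc18a2, Alox5, Aff4, Dync1h1, Cd53 and Coro2a. Aff4, a scaffold of the super elongation complex, had 41828 untreated, 14427 with LPS, 22981 with IL-10 and 10267.5 with both, and Dync1h1, the heavy chain of cytoplasmic dynein, had 36079, 12844, 19445 and 9239. In both genes the means with LPS lay below the means without it, and neither was lowered in another cell type of the study. On the raised side Gpr56, an adhesion G-protein-coupled receptor, had 5021, 41233.5, 6861.5 and 19595.5, and Pcyt1a, the rate-limiting enzyme of phosphatidylcholine synthesis, had 9632, 37188.5, 7260.5 and 36209.5. Neither was raised in another cell type. Gpr56 was lowered in macrophages, with a log2 fold change of -1.07, and Pcyt1a in macrophages and splenic dendritic cells, with -1.92 and -1.35.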
